A study of Mus musculus with 6 samples.

Results

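Ciliated airway epithelium, the motile-ciliated cells that line the conducting airways, was examined in single-cell transcriptomes of aged mouse lung. The cells were chosen by raw unique molecular identifier (UMI) counts: a barcode needed 500 or more genes, 1000 or more UMIs, no more than 15% mitochondrial UMIs, at least 1 UMI of Foxj1, at least 2 of Ccdc153, at least 1 of Tmem212, and 0 of the endothelial gene Cdh5. The rule selected 689 of the 88616 barcodes that passed the quality limits. Of these, 96, 110 and 75 came from the 3 libraries labelled p16-DTR, and 119, 141 and 148 from the 3 control libraries.

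The 3 libraries labelled p16-DTR came from C57BL/6 males of 21 months that carried p16-CreERT2 and R26-LSL-DTR, a receptor for diphtheria toxin that Cre recombinase switches on in cells in which the p16 promoter drives the Cre. The 3 control libraries came from C57BL/6 males of that age with p16-CreERT2 alone. All mice, controls included, were given tamoxifen on 5 days and, 2 weeks later, diphtheria toxin on 5 days, and recovered for 2 weeks. Each library was 1 mouse, and the cells loaded were a sorted mixture of 20000 CD45-negative and 9000 CD45-positive cells, so that a share of a library is set in part by the sort. Group names are those of the labels: Cdkn2a, which encodes p16, was higher and not lower in the ciliated cells of the libraries labelled p16-DTR, as described below.

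A motile cilium is built on an axoneme of outer doublet microtubules around a central pair. Dynein arms slide the doublets past each other, and radial spokes and nexin links turn sliding into a beat that moves mucus out of the airway. FOXJ1 and the RFX factors are the transcription factors best known for switching on the genes of this machinery, and RFX factors bind a DNA element called the X-box in many ciliary promoters.

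The 4 marker genes were abundant in all 6 libraries. Levels are given as CPM, the UMIs of a gene per 1e6 UMIs summed over the ciliated cells of a library. The 3' chemistry is designed to count 1 tag per RNA molecule, so levels were not scaled by gene length. Whether gene length still affects them was not tested. Foxj1 (chromosome 11, 116330704 to 116335399 in GRCm38) reached 656, 604 and 553 CPM under the p16-DTR label and 519, 591 and 578 CPM in the controls. Tmem212, which encodes a transmembrane protein, reached 1596, 1459 and 1485 CPM against 1718, 1589 and 1634 CPM. The groups overlapped for both genes. Ccdc153, a coiled-coil gene of motile cilia, was at 1414, 1202 and 1303 CPM against 1473, 1406 and 1421 CPM. Dynlrb2, which encodes a light chain of dynein and was not part of the rule, had a UMI in 688 of the 689 cells and was at 1011, 893 and 856 CPM against 991, 958 and 920 CPM. These genes were 202-fold (Dynlrb2) to 223-fold (Tmem212) higher than in the sum of all other quality-passing cells. Of the 4, 3 were part of the rule, so their folds follow in part from it. That sum still held the barcodes that failed only the limit on Cdh5. Tmem212 was at 7.08 CPM in it, 0.547 CPM in neutrophils and 0.470 CPM in alveolar type 2 cells. Dynlrb2 was at 4.65, 0.664 and 24.4 CPM. How far those barcodes limit the folds was not tested.

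The edges of the rule touched few cells, apart from its endothelial limit. Median UMIs per cell lay between 17 and 24 for Foxj1, 41.5 and 59 for Ccdc153 and 49.5 and 66 for Tmem212, across libraries. Inside the rule, 13 cells had a single Foxj1 UMI, 11 had 2 or 3 Ccdc153 UMIs and 3 had a single Tmem212 UMI. Outside it, 12 barcodes met everything but Foxj1, 2 missed only Ccdc153 with 1 UMI, and 1 missed only Tmem212. The limit on Cdh5 removed 107 barcodes with 1 Cdh5 UMI and 58 with more.

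To show the sequence in front of genes that mark these cells, the windows from 250 bases before to 50 bases after the start of transcription were taken from RefSeq (GRCm38.p6). The first set below holds 2 markers, Dynlrb2 (chr8:116504765-116505064, plus strand) and Ccdc153 (chr9:44240427-44240726, plus strand). The next 3, Iqca (chr1:90153387-90153686, minus strand), Sntn (chr14:13670626-13670925, plus strand) and Fam183b (chr11:58801911-58802210, minus strand), are among the 20 genes of largest fold over other cells. Tmem212 (chr3:27896319-27896618, minus strand) is shown as a marker without either of the 2 forms marked below. X-box forms with other letters or spacing were not searched. Capitals mark the X-box half-site GTTGCC or, in Iqca, the longer palindromic form GTTNCCNNGGNAAC; each sequence reads 5′ to 3′ along its gene.
Dynlrb2: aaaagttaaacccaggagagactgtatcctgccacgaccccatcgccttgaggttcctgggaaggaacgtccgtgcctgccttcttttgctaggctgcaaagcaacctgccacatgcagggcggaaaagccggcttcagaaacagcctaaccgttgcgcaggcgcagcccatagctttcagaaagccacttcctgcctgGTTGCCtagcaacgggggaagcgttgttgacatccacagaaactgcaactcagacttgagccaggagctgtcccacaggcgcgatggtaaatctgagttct
Ccdc153: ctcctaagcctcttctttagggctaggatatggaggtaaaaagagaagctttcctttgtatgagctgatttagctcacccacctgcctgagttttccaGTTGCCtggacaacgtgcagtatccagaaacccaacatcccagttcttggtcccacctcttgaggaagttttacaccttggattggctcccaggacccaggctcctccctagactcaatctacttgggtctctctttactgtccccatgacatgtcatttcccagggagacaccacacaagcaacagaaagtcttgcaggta
Iqca: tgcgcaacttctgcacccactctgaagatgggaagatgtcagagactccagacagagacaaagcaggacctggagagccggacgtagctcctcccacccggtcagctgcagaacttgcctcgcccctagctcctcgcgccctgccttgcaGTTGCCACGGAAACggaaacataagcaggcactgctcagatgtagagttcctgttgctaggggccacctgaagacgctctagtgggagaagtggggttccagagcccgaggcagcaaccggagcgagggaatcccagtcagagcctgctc
Sntn: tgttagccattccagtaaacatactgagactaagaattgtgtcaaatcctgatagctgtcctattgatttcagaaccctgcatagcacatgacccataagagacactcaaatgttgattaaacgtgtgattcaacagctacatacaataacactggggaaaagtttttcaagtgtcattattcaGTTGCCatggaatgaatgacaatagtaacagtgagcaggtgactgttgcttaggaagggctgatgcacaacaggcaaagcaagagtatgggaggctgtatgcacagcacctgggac
Fam183b: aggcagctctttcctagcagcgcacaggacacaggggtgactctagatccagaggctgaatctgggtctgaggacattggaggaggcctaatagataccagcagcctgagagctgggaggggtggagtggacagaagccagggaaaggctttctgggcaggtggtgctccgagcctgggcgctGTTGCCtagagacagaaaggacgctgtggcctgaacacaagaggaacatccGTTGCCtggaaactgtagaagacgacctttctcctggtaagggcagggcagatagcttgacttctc
Tmem212: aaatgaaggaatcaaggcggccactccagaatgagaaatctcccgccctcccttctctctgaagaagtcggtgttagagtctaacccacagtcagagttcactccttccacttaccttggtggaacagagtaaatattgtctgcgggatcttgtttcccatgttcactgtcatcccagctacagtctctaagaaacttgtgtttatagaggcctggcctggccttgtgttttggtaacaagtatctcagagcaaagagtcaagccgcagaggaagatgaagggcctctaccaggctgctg

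The half-site began 51 bases before the start in Dynlrb2, 152 in Ccdc153 and 66 in Sntn. Fam183b held it at 67 and at 16 bases before the start, and the longer form in Iqca began 100 bases before it. Among the 264 genes with at least 50 CPM in ciliated cells and at least 100-fold more than in other cells, 201 had a window, and 83 of these (41.3%, exact 95% interval 34.4% to 48.4%) held GTTGCC on either strand. Of 2837 genes with a window, at least 50 CPM and under 10-fold over other cells, 16.1% held it, as did 14.1% of all 27025 genes with a window. Median GC content of the windows was 54%, 62.7% and 52.7% in these sets. The share was 38.3% for genes at least 50-fold higher and 34.9% at 10-fold, a choice added after the values were seen.

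The longer form GTTNCCNNGGNAAC was found in 2.99% of the 201 genes, 0.740% of the genes under 10-fold and 0.529% of all; it can overlap the half-site. TGTTTAC, a core that forkhead factors bind, was in 6.97%, 3.03% and 4.05%. The half-sites lay close to the start: of the 104 in windows of the genes at least 100-fold higher, 59 (56.7%) began within the 100 bases before it, against 1688 of 4500 (37.5%) over all windows. These are matches of letters in a window and were chosen with the levels in ciliated cells known; no binding was measured here.

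**Figure D1:**
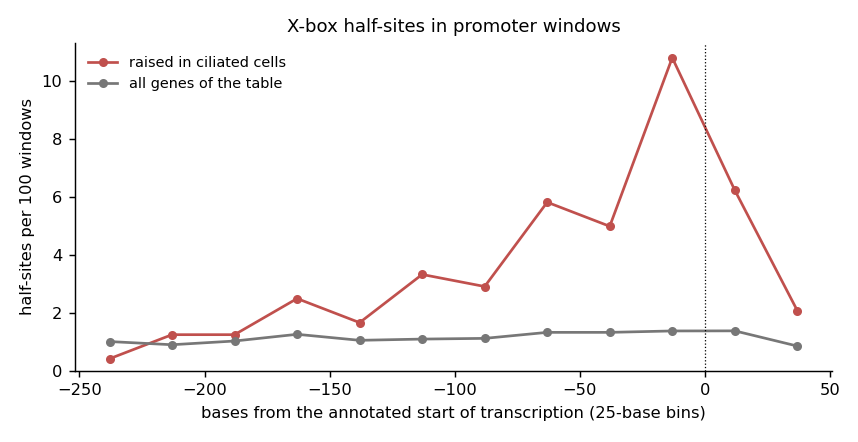
X-box half-sites (GTTGCC, both strands) per 100 promoter windows in 25-base bins (vertical axis) by distance from the annotated start of transcription (horizontal axis). The red line is genes with at least 50 CPM in ciliated cells and at least 100-fold over other cells, the grey line all genes of the table; the red line is highest in the bin just before the start, at 10.8 sites per 100 windows against 1.37.

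Among genes of high level, ciliated cells combined ciliary, detoxifying and chaperone transcripts. The highest were Gm42418, a locus that overlaps ribosomal RNA sequence, at a mean of 28829 CPM, and the nuclear RNA Malat1 at 14828 CPM. Cbr2, a carbonyl reductase of the airway, followed among nuclear protein-coding genes at 5228 CPM, 44.9-fold over other cells. Hsp90aa1, which encodes an inducible form of the chaperone HSP90, was at 4461 CPM (11.97-fold), and Sec14l3, a lipid-binding protein gene, was at 3912 CPM (137-fold). Of 4294 genes with at least 50 CPM, 737 were at least 10-fold, 377 at least 50-fold and 264 at least 100-fold higher than in the other cells. The largest fold was that of Lrriq1 at 247, with 994 CPM. AU040972 (245), Fam216b (239), Kndc1 (234) and Elmod1 (233) followed it. The other cells still held the barcodes that failed only the Cdh5 limit, 107 with 1 Cdh5 UMI and 58 with more. Lrriq1 was at 4.03 CPM and Elmod1 at 1.62 CPM in all other cells, and at 0.295 and 0.0094 CPM in neutrophils. How far those barcodes limit the folds and their order was not tested. Because the cells were chosen by genes of this programme, these folds are descriptions and carry no test.

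Axonemal dynein genes, the motors of the beat, had a median level of 493 CPM over 16 members, 131-fold over other cells, and 15 of the 16 were at least 10-fold higher. Dnah12, an inner-arm heavy chain, was the most abundant at 2850 CPM, and Dnah5, the outer-arm heavy chain whose loss causes primary ciliary dyskinesia, was at 1325 CPM with a UMI in 99.7% of cells. Dnah8, a heavy chain known from sperm, was at 4.41 CPM, below its level of 17.2 CPM in other cells. Dnah7a and Dnah7b are near-identical copies, and their split of reads is uncertain.

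The other parts of the axoneme followed the same pattern. Central-pair genes had the highest median level of the ciliary lists, 653 CPM and 162-fold over 11 members, led by Spag17 (1328 CPM) and Hydin (1205 CPM), 2 large scaffold proteins of the central apparatus. Radial spoke and nexin link genes were at a median of 322 CPM (154-fold, 17 members), led by Ccdc39, part of the ruler that spaces dyneins and spokes along the doublet, at 923 CPM. Dynein assembly and docking genes were at 127 CPM (127-fold, 13 members), led by the assembly factor Lrrc6 at 407 CPM. Microtubule inner proteins and tubulins were at 307 CPM (54.1-fold, 16 members); Tuba1a, a tubulin that other cells share, was only 5.96-fold higher.

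Intraflagellar transport and BBSome genes, which serve primary cilia in many cell types as well, had a median of 147 CPM and a lower median fold, 8.76 over 30 members. Traf3ip1, a subunit of the transport train, led at 793 CPM (56.5-fold). Ttc21b was at 14.7 CPM, 0.845 times its level in other cells.

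Regulators of ciliogenesis covered a wide range of levels. Foxj1 and Rfx3 were both at 583 CPM on average, 203-fold and 6.82-fold over other cells, and Trp73, a p53 relative that switches on the multiciliated programme, was at 127 CPM (159-fold). Deup1, which builds the deuterosome on which basal bodies multiply, had a UMI in 543 of the 689 cells (78.8%). Of the early factors, Ccno had a UMI in 185 cells (26.9%), Mcidas in 13 and Gmnc in 5. Of 15 regulators, 5 were at least 10-fold higher than in other cells.

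**Figure D2:**
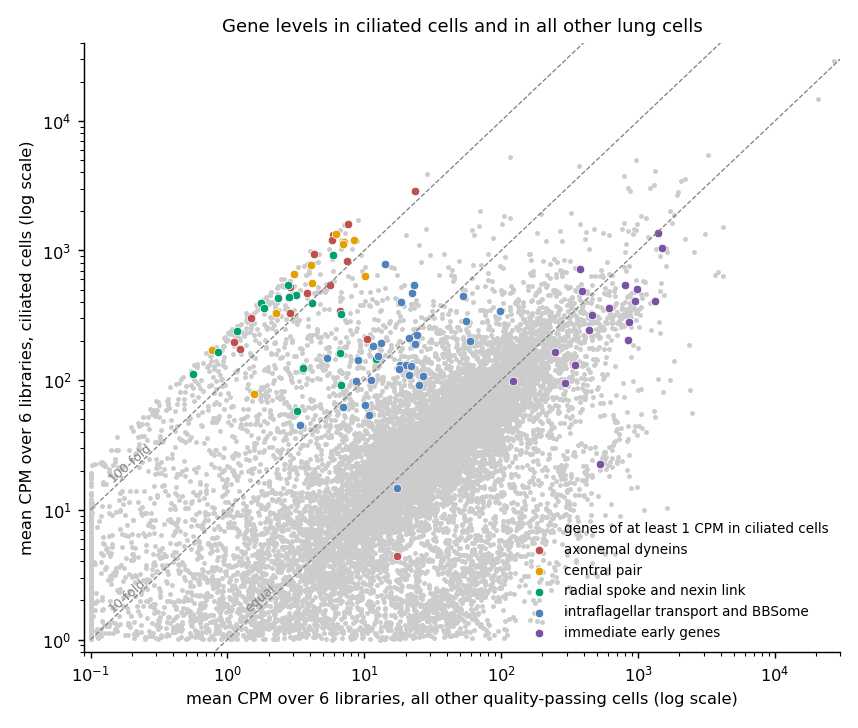
Mean CPM over the 6 libraries in ciliated cells (vertical, log scale) against the sum of all other quality-passing cells (horizontal, log scale; values under 0.1 are drawn at 0.1), for genes of at least 1 CPM in ciliated cells (grey) and members of 5 lists (colours). Dynein, central-pair and radial spoke genes lie near or above the 100-fold line, transport genes near the 10-fold line and immediate early genes near or below equality.

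Markers of other lung cells ranged from 0 to levels near or above those of the other cells. Krt5 and Krt14 of basal cells, Chga of neuroendocrine cells, Trpm5 of tuft cells, Foxi1 of ionocytes and Marco of alveolar macrophages were at 0 in all libraries. Other members of these lists were detected. Basal markers summed to at most 1.02 CPM, with 2 of 4 at 0, and neuroendocrine markers to at most 0.346 CPM. Tuft and ionocyte markers, 2 of 4 at 0, summed to 1.04 to 2.12 CPM over libraries, close to the 1.73 CPM of other cells. Of the 4 macrophage markers 3 were detected, at a summed 30.8 to 394 CPM under the p16-DTR label and 30.6 to 253 CPM in the controls, against 2432 CPM in other cells. Nearly all of this was Lyz2, a lysozyme gene, and in the 4 libraries where it was highest a single cell held 62.2% to 87.9% of its UMIs.

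Alveolar type 1 markers, all 5 detected, summed to 300.1 to 315 CPM and 246 to 307 CPM, near the 292 CPM of other cells. Hopx, a homeodomain protein gene, made up most of this at a mean of 286 CPM with a UMI in 96.5% of ciliated cells, while Ager was at 5.28 CPM. Neutrophil markers, all 4 detected, summed to 27.9 to 280.1 CPM and 20.9 to 591 CPM, highest in control replicate 1, against 2656 CPM in other cells. Leukocyte markers, all 4 detected, summed to 37.9 to 79.6 CPM and 50.3 to 113 CPM, against 1533 CPM. Of the 5 endothelial markers only Cdh5 was at 0, by the rule; their summed level was 21.9 to 27.3 CPM under the p16-DTR label and 14.7 to 27.5 CPM in the controls, against 2441 CPM in other cells. All 5 fibroblast markers were detected, at a summed 10.97 to 192 CPM and 37.7 to 113 CPM, against 1903 CPM.

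Secretory markers, all 6 detected, summed to 2154 to 19684 CPM and 1998 to 12698 CPM. Scgb1a1, the club cell secretoglobin, had a UMI in 678 of the 689 cells with medians of 25, 19 and 22 UMIs per cell under the p16-DTR label and 16, 23 and 23 in the controls. Replicate 3 labelled p16-DTR and control replicate 3 stood apart at 14732 and 11277 CPM, against 788 to 1256 CPM in the other 4 libraries. In these 2 libraries a single cell held 94.4% and 90.4% of the Scgb1a1 UMIs, and without it their levels were 852 and 1111 CPM. With the highest cell of every library left out, Scgb1a1 lay between 706 and 1111 CPM, around its level of 960 CPM in other cells. That level is an average over unlike cells. Neutrophils were at a mean of 42.7 CPM and alveolar type 2 cells at 3612 CPM.

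Sftpc, a surfactant protein, was at 1105, 1937 and 62.6 CPM against 62.7, 643 and 101 CPM, and in the 3 high libraries 1 cell held 92.9%, 96.2% and 88.0% of its UMIs. Without that cell the 3 libraries were at 79.3, 76.4 and 78.7 CPM, within the range of the others. Mki67, a marker of dividing cells, had a UMI in 7 cells, 1 of which held 77 UMIs in control replicate 3. Whether such barcodes hold 2 cells was not tested.

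Among the ciliated cells themselves, the immediate early genes Fos, Jun and Atf3 varied most apart from these markers and from abundant nuclear and mitochondrial RNA. Spread was measured as variance over mean after thinning each cell to 5000 UMIs, as the median over libraries; a value near 1 is what counting alone gives. Fos reached 13.2, Jun 10.95 and Atf3 7.98, and these transcription factor genes answer within minutes to many stimuli. Ier2 (4.73) and Nr4a1 (2.95), also immediate early genes, varied less. Foxj1 was at 1.52, Tmem212 at 1.71, Ccdc153 at 1.596 and Dynlrb2 at 1.44.

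Cells high in one of these genes tended to be high in the others. The Spearman correlation between Fos and Jun across the thinned cells of a library was 0.778 as a median over 6 libraries (lowest 0.647), and Jun with Atf3 gave 0.769. Actg1, cytoplasmic actin, correlated with Jun at 0.427 and with mt-Cytb, a mitochondrial gene, at -0.457. These are descriptions over cells that share libraries and, after thinning, a fixed total.

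Ciliated cells were deeper than the average barcode in both groups. Their median UMI counts were 37672, 36857.5 and 37907 under the p16-DTR label and 37020, 41416 and 40356.5 in the controls, against medians of 17356 to 18870.5 over all quality-passing barcodes. Mitochondrial UMIs had medians of 3.07%, 2.68% and 2.93% against 2.92%, 2.31% and 2.41%, which overlap. Median genes, median UMIs and the mitochondrial median gave p of 0.3, 0.3 and 0.2 (exact two-sided permutation test; 0.3 each adjusted over 3 measures; the smallest possible p is 0.1). Whole libraries held 254200305 to 344421685 UMIs in 94392 barcodes over 6 libraries, and the summed ciliated counts 2827269 to 5886771 UMIs. Library pairs shared 59 to 94 barcodes and 0 among ciliated cells.

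Ciliated cells made up 0.670%, 0.747% and 0.501% of quality-passing barcodes under the p16-DTR label and 0.724%, 1.11% and 0.954% in the controls. The means were 0.639% ± 0.126 and 0.931% ± 0.195 (SD, n = 3 each), but replicate 2 labelled p16-DTR lay above control replicate 1. The exact two-sided permutation p was 0.2, and with 3 against 3 it cannot be below 0.1. Among barcodes of the ciliated, secretory, alveolar type 1 and type 2 gates together, the ciliated share was 42.1% ± 5.79 against 40.8% ± 1.59. This was the opposite direction (exact permutation p = 0.8). All these gates but the ciliated one required 0 UMIs of Ptprc, which encodes CD45. Epithelial cells outside the gates were not counted, so the value is not a share of lung epithelium. Among barcodes without a UMI of Ptprc the ciliated share was 0.913% ± 0.166 against 1.22% ± 0.263, lower as over all barcodes (exact permutation p = 0.2). Without the limit on Cdh5, an alternative chosen after the data were seen, the difference was -0.390 percentage points and the groups did not overlap (exact p = 0.1).

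The comparison of the groups asked which genes of ciliated cells differed 2 weeks after the end of toxin. UMIs were summed per library and 12187 genes were tested with edgeR; 0 passed a Benjamini-Hochberg adjusted p under 0.05 (0.0% called). An unadjusted p under 0.05 was reached by 819 genes (6.72%), 387 higher (3.18%) and 432 lower (3.54%). DESeq2, an alternative, called 37 (0.304%), 12 higher and 25 lower. That share is over all 12187 genes, although DESeq2 gave some of them no adjusted p. The median log2 fold change of all tested genes was 0.0056. Leaving out replicate 1 labelled p16-DTR gave 52 edgeR calls and leaving out replicate 2 of that label 7, while each of the other 4 left 0. That replicate 1 also had the highest summed fibroblast markers, 192 CPM, and its part in these calls was not tested.

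Cdkn2a (chromosome 4, 89274471 to 89294653) had the smallest p. It encodes the cell cycle inhibitor p16 and, from an overlapping transcript, ARF, which 3' tags cannot tell apart. Its level was 7.22, 5.04 and 5.31 CPM under the p16-DTR label and 0.236, 0 and 0 CPM in the controls, so that every library of the first group was above every control. Pooled over libraries these were 61 UMIs against 1, a ratio of 93.8 (95% interval 16.2 to 3765, counting error only). The log2 fold change was 6.01 ± 0.73 (SE, worked back from the edgeR F statistic) with an edgeR adjusted p of 0.0545. This SE is narrower than the interval of the ratio, which shows the counting error of 1 control UMI. DESeq2 gave Cdkn2a no adjusted p, and over 17 alternatives that did, the adjusted p ran from 8.63e-04 to 0.413 and was under 0.05 in 8.

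By cell, a Cdkn2a UMI was found in 46 of 281 ciliated cells labelled p16-DTR (16.4%, exact 95% interval 12.2% to 21.2%) and in 1 of 408 control cells (0.245%). The interval pools the cells of the mice and covers counting error only. By library the shares were 19.8%, 14.5% and 14.7% against 0.840%, 0% and 0%. After thinning to 5000 UMIs, with 4 and 5 shallower cells left out, the shares were 3.16%, 3.70% and 2.70% against 0% in each control library (9 of 277 cells against 0 of 403, which allows up to 0.744% as 3 counts and 0.911% as the upper end of the exact interval; exact permutation p = 0.1, the smallest possible). Neutrophils, planned as the comparison cells for free RNA, had 1.18% ± 0.424 and 0.0831% ± 0.144 after thinning. Before thinning they had 4.18% and 0.183%, at median depths of 9143 to 11605 UMIs. Their summed level was 2.83, 3.26 and 5.53 CPM in the libraries labelled p16-DTR, so the group difference was present in them too. The thinned share of ciliated cells was above that of neutrophils in each library labelled p16-DTR, 3.16% against 1.02%, 3.70% against 0.859% and 2.70% against 1.66%, a difference that was not tested. By summed level, replicate 3 had the higher value in neutrophils. Against all other quality-passing cells, ciliated cells were not high in Cdkn2a. Their mean over the 6 libraries was 2.97 CPM, 0.598 times the 4.96 CPM of the other cells. Single neutrophil barcodes of the libraries labelled p16-DTR held up to 6, 3 and 11 Cdkn2a UMIs, and single ciliated cells up to 3, 2 and 3. How much of the neutrophil level is free RNA was not tested.

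Within the libraries labelled p16-DTR, ciliated cells with a Cdkn2a UMI had median depths of 41356, 40959.5 and 44949 UMIs, above the 37088, 36222.5 and 37796.5 of cells without one. When the 281 cells were limited to the 158 free of Ptprc, Pecam1, Col1a2 and Col3a1 UMIs, 28 (17.7%) held a Cdkn2a UMI before thinning. Their level was 6.36 to 8.40 CPM against 0 to 0.376 CPM in the same cells of the controls, without overlap (exact permutation p = 0.1), and edgeR gave Cdkn2a an adjusted p of 0.00168 in these cells. Thinned to 2500 UMIs the share was 1.59% to 3.92%, with every library above every control, and thinned to 5000 UMIs it was 0% to 6.56% against 0%, with overlap (exact permutation p = 0.4). The tdTomato transcript had a UMI in 1, 0 and 1 ciliated cells labelled p16-DTR and in 0 ciliated control cells. Among quality-passing cells of any type it had a UMI in 86, 73 and 91 cells of the libraries labelled p16-DTR. In each control library it had a UMI in 0 cells of any type.

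**Figure D3:**
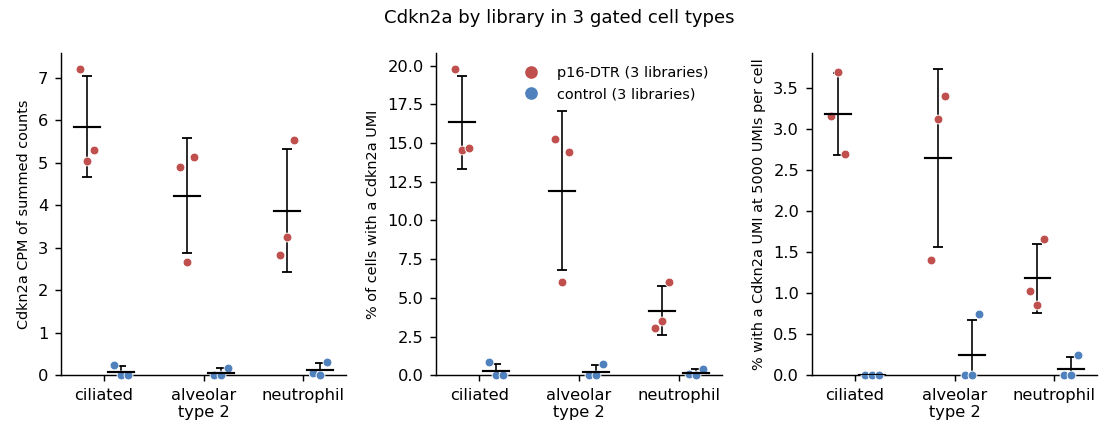
Cdkn2a in ciliated cells, alveolar type 2 cells and neutrophils, as CPM of summed counts (left), percent of cells with a UMI (middle) and that percent after thinning to 5000 UMIs (right). Points are libraries, lines means and bars SD (n = 3); libraries labelled p16-DTR lie above the controls in each cell type and measure.

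Other cell cycle and p53 genes showed smaller differences. Of 17 members, 12 had higher and 5 lower values, 2 had an unadjusted p under 0.05, both higher (Cdkn2a and Sesn1), and the median log2 fold change was 0.14. Over all tested genes 51.3% had higher values and 3.18% were higher at an unadjusted p under 0.05. Cdkn1a, the p53 target that encodes p21, was at 194, 202 and 196 CPM against 191, 220 and 198 CPM, with a log2 fold change of -0.027 ± 0.073. Cdkn2b, the neighbour of Cdkn2a, was at 20.6, 18.3 and 19.1 CPM against 13.5, 17.6 and 21.6 CPM (log2 fold change 0.14 ± 0.18). Mouse Hbegf, the counterpart of the toxin receptor, was at 8.02, 76.2 and 55.5 CPM against 30.3, 39.8 and 72.0 CPM. These groups overlapped, and the edgeR adjusted p of the 3 genes lay between 0.937 and 0.998.

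Pdpk1 (chromosome 17, 24073680 to 24150924), which encodes the kinase PDK1 upstream of AKT, was second. It was at 161, 152 and 145 CPM under the p16-DTR label and 103, 100 and 109 CPM in the controls, with no overlap. The log2 fold change was 0.57 ± 0.07 (edgeR adjusted p = 0.0545, DESeq2 1.38e-04), and the adjusted p was under 0.05 in 9 of 18 alternatives (range 1.38e-04 to 0.413).

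Further genes of smallest p were higher in the libraries labelled p16-DTR without passing edgeR. Fkbp4, a co-chaperone of HSP90, was at 251, 256 and 219 CPM against 170, 165 and 183 CPM (log2 fold change 0.50, edgeR adjusted p = 0.204). Cxcl17, a mucosal chemokine that was 133-fold higher in ciliated cells than in others, was at 388, 397 and 417 CPM against 312, 311 and 286 CPM (0.42, edgeR adjusted p = 0.251). Neither gene overlapped between groups. Adam12, a membrane metalloprotease, had the largest log2 fold change of these after Cdkn2a, 2.62, from a level of 6.41, 14.3 and 17.3 CPM against 3.07, 1.04 and 2.21 CPM. Its mean of 7.40 CPM was 0.347 times its level in other cells, and without the Cdh5 limit its log2 fold change was 1.74 (edgeR adjusted p = 0.800). Over 18 alternatives the log2 fold change of Adam12 ran from 1.74 to 2.96. Its edgeR adjusted p ran from 0.0129 to 0.800 and was under 0.05 in 3. Tmem108, Creld2, Crb3 and Uchl1 completed the 10, with log2 fold changes of 0.98, 0.32, 0.46 and 0.53. Without cells holding a UMI of Ptprc, Pecam1, Col1a2 or Col3a1, that of Tmem108 was 0.32 (edgeR adjusted p = 0.920) and that of Cxcl17 0.26 (edgeR adjusted p = 0.504).

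The genes of smallest p with lower values included transcription factors of signalling responses. Egr2, an immediate early factor, was at 4.54, 5.31 and 1.41 CPM under the p16-DTR label and 22.2, 15.05 and 18.9 CPM in the controls (log2 fold change -2.25 ± 0.34, edgeR adjusted p = 0.251). Stat3, which carries signals of the IL-6 family, was at 166, 199 and 190 CPM against 282, 247 and 259 CPM (-0.49 ± 0.09, edgeR adjusted p = 0.311). Both were without overlap. Icam1, an adhesion molecule, had a log2 fold change of -0.84 and Nr4a1 -0.53. Dhx40 (-0.41), 1810008I18Rik (-0.56), Trdmt1 (-0.85) and Ier2 (-0.53) were also among the 10. Without cells holding a UMI of Ptprc, Pecam1, Col1a2 or Col3a1, Dhx40 was at -0.12 and Trdmt1 at -1.42 (edgeR adjusted p = 0.893 and 0.0263).

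Immediate early genes had lower values in the libraries labelled p16-DTR for 17 of 18 members, against 48.7% of all tested genes. The median log2 fold change was -0.52, and over 18 alternatives it lay between -0.62 and -0.42. None was called by edgeR, and 11 had an unadjusted p under 0.05, all lower (3.54% of tested genes were). DESeq2 called 9, against 37 (0.304%) of all tested genes. There were 10 without overlap between groups, against 7.25% of tested genes that were lower without overlap. Fos was at 961, 1448 and 938 CPM against 1563, 1714 and 1600 CPM, and its median per cell was 4, 9.5 and 5 UMIs against 7, 25 and 23.5.

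Jun, the partner of FOS in the AP-1 factor, was at 679, 988 and 789 CPM against 1147, 1295 and 1366 CPM (log2 fold change -0.62 ± 0.14, edgeR adjusted p = 0.583, DESeq2 1.38e-04). Zfp36, which destabilises cytokine mRNAs, was at 282, 339 and 220 CPM against 449, 426 and 449 CPM (-0.64 ± 0.14). Socs3, the feedback inhibitor of STAT3 signalling, was at 104, 154 and 84.5 CPM against 243, 189 and 215 CPM (-0.90 ± 0.24). In each, all libraries labelled p16-DTR were below all controls. Ier2 was at 259, 294 and 216 CPM against 382, 345 and 399 CPM, also without overlap (edgeR adjusted p = 0.386, DESeq2 5.5e-04). Ier5 was the only member with a higher value (0.27). Without replicate 2 labelled p16-DTR, edgeR called 7 genes, all lower: Fosb, Fos, Egr1, Junb, Socs3, Zfp36 and Rab11fip1.

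Heat shock chaperone genes had higher values for 10 of 12 members, with a median log2 fold change of 0.50 (0.28 to 0.65 over 18 alternatives). Of the 12, 6 had an unadjusted p under 0.05, all higher (3.18% of tested genes were), and edgeR called 0. DESeq2 called 4, against 37 (0.304%) of all tested genes. There were 7 without overlap, against 5.18% of tested genes that were higher without overlap. Hspa8, the constitutive HSC70, was at 1847, 2310 and 1720 CPM under the p16-DTR label and 1288, 1382 and 1247 CPM in the controls (log2 fold change 0.60 ± 0.11, edgeR adjusted p = 0.311, DESeq2 3.25e-06). Hsp90aa1 was at 4670, 6086 and 4686 CPM against 3909, 4011 and 3404 CPM (0.46 ± 0.12). Replicate 2 labelled p16-DTR was the highest library for both, and the other 2 of its group were still above the controls.

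Hspb1, a small heat shock protein gene, was at 166, 395 and 161 CPM against 111, 108 and 144 CPM (log2 fold change 1.01 ± 0.45), with replicate 2 labelled p16-DTR far above the rest. Hspa1a was at 9.35, 13.5 and 3.89 CPM against 6.62, 8.99 and 15.8 CPM, and its groups overlapped. Hspa1a and Hspa1b are near-identical, and their split of reads is uncertain.

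**Figure D4:**
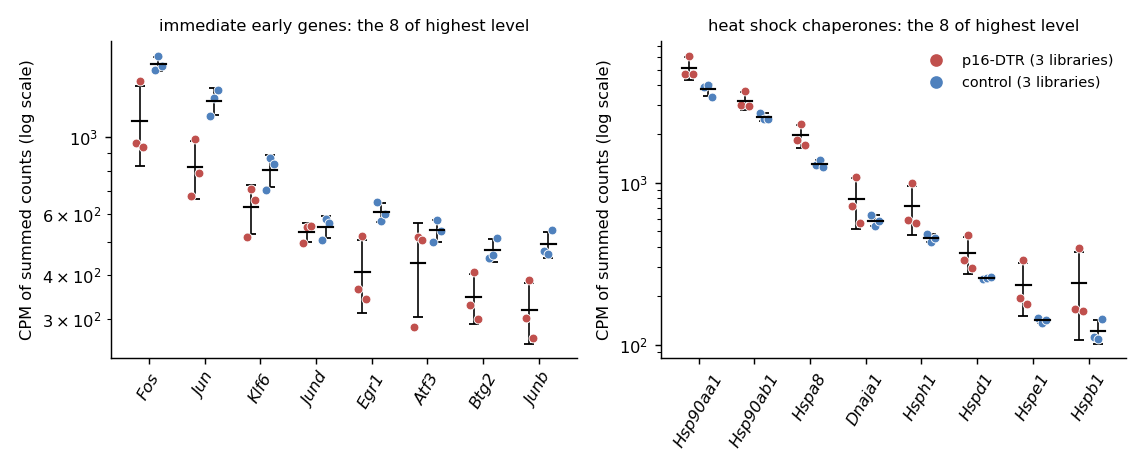
CPM of summed counts (log scale) for the 8 most abundant immediate early genes (left) and heat shock chaperones (right) in ciliated cells; points are libraries, lines means, bars SD (n = 3). Fos, Jun, Egr1, Btg2 and Junb lie lower, and 7 of the 8 chaperones (all but Dnaja1) higher, in every library labelled p16-DTR than in every control.

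Genes of the ciliary machinery had small differences between groups. Axonemal dyneins had lower values for 15 of 16 members, with a median log2 fold change of -0.11; 3 (Dnah7a, Dnah7b and Dnah1) had an unadjusted p under 0.05, all lower, and 6 did not overlap. Over all tested genes these shares were 48.7% with lower values, 3.54% lower at an unadjusted p under 0.05 and 12.4% without overlap. Dnah7a was at 478, 418 and 517 CPM against 587, 541 and 568 CPM (-0.25 ± 0.08, edgeR adjusted p = 0.724). The medians were -0.047 for dynein assembly and docking (9 of 13 lower), -0.020 for radial spokes and nexin links (11 of 17), -0.077 for the central pair (7 of 11), -0.080 for microtubule inner proteins and tubulins (12 of 16) and -0.028 for intraflagellar transport (18 of 30). EdgeR called 0 members of these lists.

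Rsph14, a radial spoke gene, was the member that DESeq2 called (adjusted p = 0.0381). It was at 106, 87.0 and 85.6 CPM against 143, 121 and 128 CPM, without overlap, with a log2 fold change of -0.48 ± 0.10 and an edgeR adjusted p of 0.386. Among the regulators, Deup1 was at 52.7, 61.3 and 61.5 CPM against 74.7, 73.0 and 67.9 CPM (-0.28 ± 0.10, edgeR adjusted p = 0.724), and 9 of 11 tested regulators had lower values (median -0.12). Foxj1 was one of the 2 with higher values, at 0.12 ± 0.08.

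**Figure D5:**
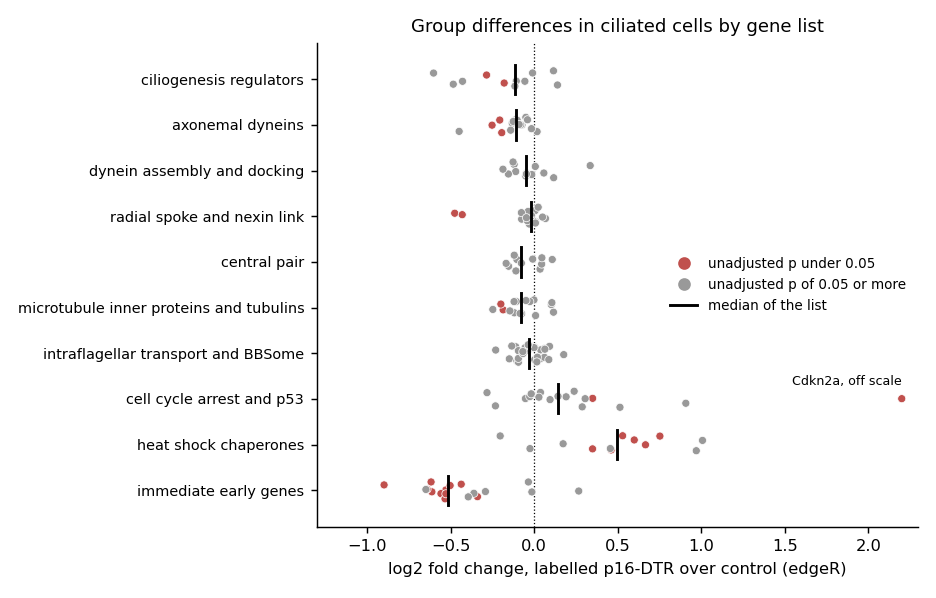
Log2 fold change of each tested member of 10 gene lists in ciliated cells, libraries labelled p16-DTR over controls; red points have an unadjusted edgeR p under 0.05 and black lines are list medians. Ciliary lists centre between -0.12 and -0.020, chaperones at 0.50 and immediate early genes at -0.52; Cdkn2a, at 6.01, is drawn at the right edge.

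Of the remaining lists, edgeR called 0 members. Over all tested genes 51.3% had higher values, 3.18% were higher and 3.54% lower at an unadjusted p under 0.05. MHC presentation genes had higher values for 12 of 14 tested (median 0.15; B2m, higher, was the 1 with an unadjusted p under 0.05), interferon response genes for 10 of 16 (0.091) and oxidative stress genes for 11 of 20 (0.023). Circadian clock genes were lower for 8 of 14 (-0.053) and glucocorticoid-induced genes for 5 of 11 (0.0080); the clock and the glucocorticoid-induced genes each had 2 members lower at an unadjusted p under 0.05. Sgk1, a glucocorticoid-induced kinase, was at 5.88, 5.31 and 5.31 CPM against 11.1, 9.17 and 16.5 CPM, without overlap (-1.14 ± 0.27, edgeR adjusted p = 0.511). Of 24 secreted inflammatory factors, 23 had a UMI in ciliated cells and 10 had enough for the test, with Cxcl17 the most abundant at a mean of 352 CPM and a median over the list of 1.86 CPM. Notch pathway genes had 4 of 8 in each direction, 1 of them lower at an unadjusted p under 0.05.

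Whether these differences were particular to ciliated cells was tested against alveolar type 2 cells in 1 model with library as a block. These were the other gated epithelium with the most cells, 633 against 333 of alveolar type 1, which were not tested in this way. Of 13164 genes, 0 differed at an adjusted p under 0.05 (0.0% called) and 820 at an unadjusted p under 0.05 (6.23%). For Cdkn2a the difference of the log2 fold changes, ciliated minus type 2, was 0.29 ± 1.596. In type 2 cells Cdkn2a was at 4.90, 2.67 and 5.13 CPM under the p16-DTR label and 0, 0 and 0.181 CPM in the controls (log2 fold change 5.49), also without overlap. After thinning to 5000 UMIs, 1.41%, 3.13% and 3.41% of type 2 cells under the p16-DTR label held a UMI (1, 3 and 3 cells). For ciliated cells these were 3, 4 and 2 cells, a higher share in replicates 1 and 2 and a lower one in replicate 3. At 2500 UMIs the type 2 shares were 1.41%, 2.02% and 3.33% against 3.13%, 0.909% and 1.33% of ciliated cells. The order in replicate 2 thus changed with depth. EdgeR called 1 cell cycle and p53 member higher in type 2 cells and 0 in ciliated cells. Of all 11205 genes tested in type 2 cells it called 1 higher and 4 lower, and 0 of 12187 in ciliated cells. The difference between the cell types was 0.10 ± 0.11 for Pdpk1 and 0.054 ± 0.108 for Hspa8. For Ier2 it was -0.37 ± 0.16 (edgeR adjusted p = 0.795) and for Egr2 -3.05 ± 0.44 (edgeR adjusted p = 0.334).

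Chaperones had a median log2 fold change of 0.42 in type 2 cells, with higher values for 11 of 12 (49.1% of all tested there), and 0.18 in neutrophils. Immediate early genes had a median of -0.22 in type 2 cells, with lower values for 12 of 18 (50.9% of all tested there), and of 0.12 in neutrophils, where 15 of 18 had higher values (48.7%). The difference between ciliated and type 2 cells was negative for 17 of the 18 immediate early genes (median -0.28), 6 of them at an unadjusted p under 0.05 (1 was positive at that p), and positive for 6 of the 12 chaperones (median -0.013). Of all 13164 genes 50.9% were negative, and 3.08% were negative and 3.14% positive at an unadjusted p under 0.05.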

How the data were processed

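Droplet single-cell RNA sequencing (GEM-X 3' chemistry, per the labels) of 6 lungs was used. The authors deposited raw UMI counts per gene and barcode, not normalized. Cell Ranger 8.0.1 and mm10 are named in the submitters' processing notes; the annotation release and cell-calling settings are not given in the sources used here. Of 31054 features, positions were matched by identifier to GENCODE M21. No doublet caller was run. Barcodes were gated as described, counts were summed per library, and groups were compared with edgeR 4.0.16 in R 4.3.3 (quasi-likelihood test, filterByExpr, TMM, adjusted p under 0.05). DESeq2 1.42.0, other scalings, filters, gates, a replicate block and each library left out were alternatives. Standard errors were worked back from the edgeR test, as the absolute log2 fold change over the square root of its F statistic. They can be too small for genes with few counts in a group. Shares used exact two-sided permutation tests over libraries; with 3 against 3 the smallest p is 0.1. Intervals are 95% exact (Clopper-Pearson) and, like floors of 3 counts, cover counting error only. The precision rests on 75 to 148 cells per library. Each library is labelled as 1 mouse, and no batch is given. Python 3.11.15, numpy 2.4.6, scipy 1.17.1 and pandas 2.3.3 were used.

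Named genes are a fixed set with the markers, the 10 of smallest p per direction where under 10 are called, the 4 most abundant members of each list, and the genes of highest level, fold and spread; list members named for their difference were added after values were seen. Some genes that the rule names are not reported here. The members, lists and rules were chosen with earlier results of these data known. The neutrophil gate needed at least 10 UMIs each of S100a8 and S100a9, with Csf3r and Ptprc. The alveolar type 2 gate needed Lamp3, Slc34a2 and Etv5, without Ptprc. Both left out Cdh5 and Foxj1. The planned test against secretory cells was replaced by alveolar type 2 cells because 3 libraries held under 10 secretory cells. Scripts were tested on simulated data.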

Additional observations from a re-analysis of the deposited data

How the results depend on the processing

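EdgeR called 0 genes in the main analysis and also with RLE size factors, with library size alone, with at most 5% mitochondrial UMIs and with the replicate block. It called 12 genes with no filter on low counts, 2 with the looser gate, 2 with the tighter gate (Cdkn2a and Pdpk1 in both), 12 without cells holding a UMI of Ptprc, Pecam1, Col1a2 or Col3a1, 13 without the 5% of cells with most UMIs and 5 with equal numbers of cells; DESeq2 called 37. Without the Cdh5 limit, chosen after seeing the data, it called 4. Leaving out 1 library gave 0 to 52 calls: 52 without replicate 1 labelled p16-DTR, 13 higher and 39 lower, among them the stromal genes Hsd11b1, Itga8, Cdh11 and Col1a2, 7 without replicate 2 of that label, and 0 without each of the other 4. Replicate 1 labelled p16-DTR had the highest summed fibroblast markers, 192 CPM against 19.4 and 10.97 in the other 2 of its group; the part of this in the 52 calls was not tested. Same-numbered libraries deviated together with correlations of 0.154, 0.147 and 0.0735, and pairs of unlike number had -0.191 to 0.0461. Each library correlated best with its own number. The labels do not say that the number pairs mice, so the main test did not use it. Whether same-numbered libraries were processed together was not tested. The difference in ciliated share was -0.291 percentage points, between means of 0.639% and 0.931%. With the epithelial gates as denominator it turned to 1.26 percentage points, between means of 42.1% and 40.8%. The direction changed, but the 2 sizes are not on a like base. The test against alveolar type 2 cells, itself an added alternative, called 0 to 1 genes when each library was left out (Bpifb1 without replicate 1 or 2 labelled p16-DTR, or control replicate 1 or 3). The test against secretory cells and its alternatives were not run. Small log2 fold changes changed sign. With each library left out Cdkn2b ran from -0.0025 (without control replicate 1) to 0.31, Cdkn1a from -0.063 to 0.00082 without replicate 1 labelled p16-DTR and 0.033 without control replicate 2, and Hbegf from -0.63 to 0.41 without control replicate 3 and 0.50 without replicate 1 labelled p16-DTR. Hbegf was also 0.0042 with DESeq2 and 0.032 with at most 5% mitochondrial UMIs. Over the alternatives the list medians of interferon response (-0.11 to 0.27), MHC presentation (-0.0053 to 0.30), glucocorticoid-induced (-0.071 to 0.070), oxidative stress (-0.016 to 0.072), Notch (-0.036 to 0.090) and secreted inflammatory genes (-0.15 to 0.40) also changed sign. The causes of these changes were not tested. In all, 56 values that answer a comparison were classed as the same, 14 as moved and 1 as reversed. Gene counts were classed as the same when equal or near to the main count. Shares, depth and quality were classed by direction alone, whatever their p. Depth limits the fold of Cdkn2a, which rests on 1 UMI in the controls.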
